A study of Homo sapiens with 6 samples.

Results

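The vacuolar-type H+-ATPase (V-ATPase), its accessory and assembly proteins, the lysosomal membrane proteins LAMP1 and LAMP2, and the cathepsin proteases were examined in RNA-seq values of erastin-treated ARPE-19 cells. Members were chosen by gene symbol: all ATP6V0 and ATP6V1 subunit symbols and all cathepsin symbols in the files. To these were added ATP6AP1, ATP6AP2, DMXL1, DMXL2, WDR7, LAMP1, LAMP2 and ROGDI. The V0 subunit gene TCIRG1 has another kind of symbol and was left out by this rule. This gave 45 of the 33496 genes in the files. ROGDI was selected on its measured values, since its FPKM were higher with vitamin K in these same libraries, so its values are a description without a test, and the counts below are over the other 44 genes. ARPE-19 is an established human cell line from retinal pigment epithelium (RPE), and all 6 samples, labelled wild type, were given the ferroptosis inducer erastin, an inhibitor of the cystine transporter, at 5 μM for 24 h. In 3 of them erastin was given alone (Era), and in the other 3 it followed 1 h of pretreatment with vitamin K1 (VK1, phylloquinone) at 10 μM (Era+VK). Samples without erastin were not analysed here, so each comparison is between erastin with and without VK1. The labels do not say whether the 3 replicates of a group were separate cultures, and the p-values measure only the spread between these libraries.

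The V-ATPase is a rotary proton pump that acidifies lysosomes, endosomes and the Golgi. Its cytosolic V1 sector hydrolyses ATP, its membrane-embedded V0 sector carries protons, and the pump is switched on and off by joining and separating the sectors, a step assisted in animals by a complex of ROGDI, DMXL1 or DMXL2, and WDR7 that corresponds to the yeast RAVE complex. Acid pH activates the cathepsins, most of which are cysteine proteases of the lysosome. In the RPE this system degrades the photoreceptor outer segments that the cells take up every day, and lysosomes also release stored iron and cystine, both of which bear on ferroptosis.

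Values are FPKM as deposited (fragments scaled by transcript length and by the mapped fragments of the library), which are per length and can be compared between genes. No read counts were used, small FPKM showed no steps of single reads, and the depth of each library is unknown. The 11981 genes that averaged 1 FPKM or more were tested with limma on log2(FPKM + 1), and every log2 fold change below is Era+VK minus Era on that scale, with its standard error (SE). Of the RPE markers, OTX2 was at 27.5 to 31.4 FPKM, MITF at 15.5 to 18.6 FPKM and KRT18 above 221 FPKM, whereas RPE65 did not exceed 0.02 FPKM and TYR did not exceed 0.17 FPKM in any library. Of the 12 RPE markers in the files, 6 stayed under 1 FPKM in every library: RPE65, TYR, TYRP1, LRAT, RLBP1 and SERPINF1. BEST1, an RPE chloride channel gene, set other libraries apart, at 2.65, 0.65 and 57.0 FPKM in Era 1, 2 and 3 and at 36.5, 0.60 and 4.80 FPKM in Era+VK 1, 2 and 3. Libraries Era+VK 2 and Era+VK 3 stood apart by erythroid transcripts: 16 globin and other erythroid marker genes summed to 241 and 234 FPKM in them and to 0.31 to 0.63 FPKM in the other 4 libraries, and 14 of the 16 were higher in both than in each of the others. The 7 leukocyte markers in the files summed to 0.83 to 1.89 FPKM. In Era+VK 2, short transcripts were also relatively high and long ones low. Across 11893 genes, the Spearman correlation of transcript length with the deviation from the other 2 libraries of the group was -0.41 in Era+VK 2, 0.27 and 0.24 in Era+VK 1 and 3, and between -0.16 and 0.10 in the Era libraries. Era+VK 2 is in the reference for Era+VK 1 and 3, so the correlations of those 2 libraries depend in part on it. For some results that rest on Era+VK 2 and 3, the value with Era+VK 1 alone is given too.

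ROGDI (ENSG00000067836, chromosome 16 of GRCh38, 4796968 to 4802950) is the assembly factor that was selected on its values. Its level was 5.25, 5.14 and 4.79 FPKM in Era and 7.40, 7.22 and 7.04 FPKM in Era+VK. Each Era+VK library was above each Era library, and the mean went from 5.06 ± 0.240 to 7.22 ± 0.180 FPKM (SD, n = 3 per group), which is a ratio of 1.43 and 0.44 (SE 0.05) on the log2 scale. ROGDI ranked 73 by log2 fold change, counted from the top, among all genes tested, and the next member, ATP6V1F, was at 0.24. The value of Era+VK 1, in which erythroid transcripts were near 0, was the highest of the 6. The same-strand gene AC020663.4 shares 1412 exonic bases with ROGDI. With each library left out in turn the log2 fold change of ROGDI stayed between 0.41 and 0.46, and with Era+VK 1 as the only VK1 library it was 0.47. Since ROGDI was selected on these same values, its rank, its value in Era+VK 1 and these ranges only describe the rise and lend it no support. A part of the erythroid transcripts in it was not tested.

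No member that was tested passed the threshold. Of the 44 genes other than ROGDI, 32 reached a mean of 1 FPKM and were tested, and 0 had an adjusted p under 0.05 in limma, against 0.618% of all genes tested (74 genes, 0.134% higher and 0.484% lower). At an unadjusted p under 0.05 there were 10, against 15.8% of all genes. The 3 Era+VK libraries lay wholly above or wholly below the 3 Era libraries for 10 of the 32, against 22.1% of all genes. Of these, 6 were higher (ATP6V1A, ATP6V0B, ATP6V0E2, WDR7, CTSA and CTSF) and 4 were lower (CTSC, CTSD, CTSH and CTSK), where the backgrounds are 15.1% and 7.04%. The direction of these 10 was the same under each of 14 alternative settings. Without overlap, leaving libraries out or changing the pseudocount, the filter or the block cannot reverse it, so these settings lend no support. Quantile normalization and removal of the length trend could have reversed it. Rescaling hardly moved the values, as for CTSA, whose log2 fold change went from 0.0696 to 0.0676. The 10 genes were picked for lack of overlap in these same values, so their kept direction lends no support under any setting. The lowest adjusted p in limma of any tested member in any setting was 0.0644, that of ATP6V1A without Era+VK replicate 2. By role, the median log2 fold change was 0.0008 over 8 V1 subunits, 0.05 over 7 V0 subunits, 0.18 over the 3 assembly factors other than ROGDI, 0.02 over the LAMP genes and -0.06 over 10 cathepsins, beside 0.03 over all genes tested. Of all genes tested, 63.3% had a higher mean in Era+VK, against 18 of the 32 members.

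**Figure D1:**
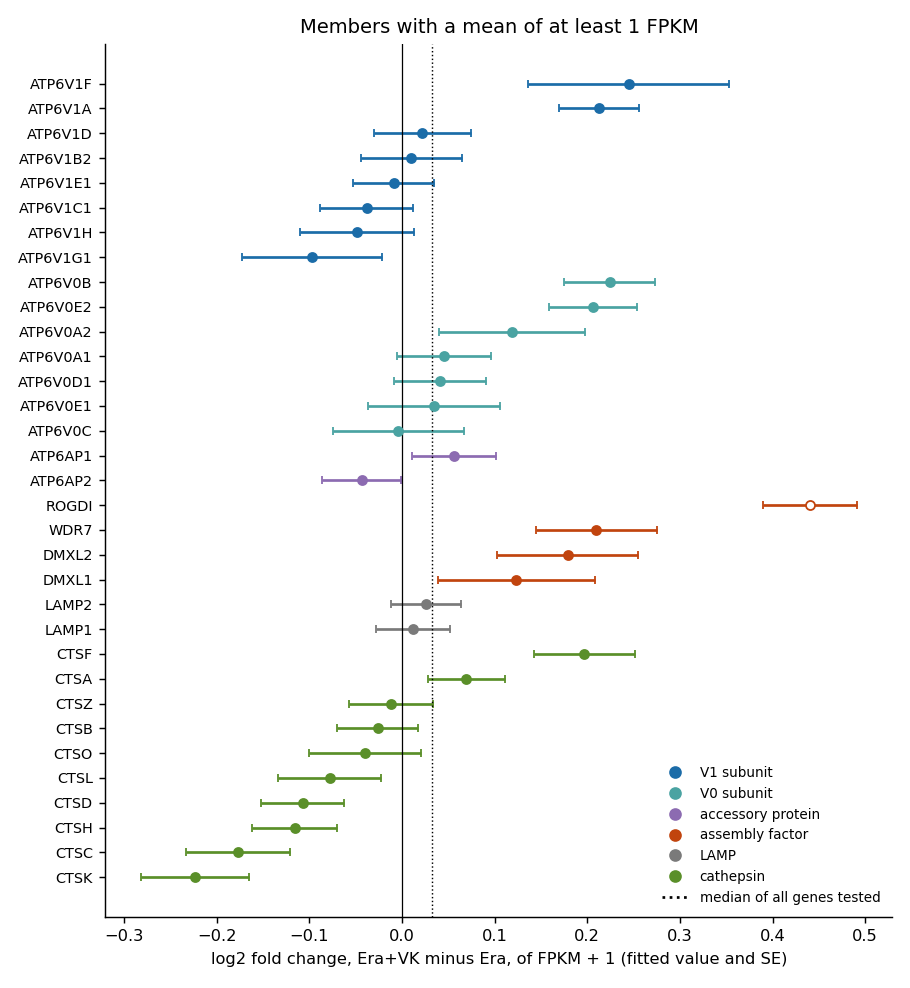
Fitted log2 fold change (Era+VK minus Era, of FPKM + 1) with its standard error for the 33 members that averaged 1 FPKM or more, coloured by role. The dotted line is the median of all 11981 genes tested, 0.03. ROGDI (open circle) is at 0.44 and was chosen for this value. Of the 10 cathepsins, 8 lie left of 0 and 2 right of it, where 63.3% of all genes tested lie. Among the 8, CTSZ and CTSO changed sign in some settings.

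Many lysosomal genes carry near their start the E-box CACGTG, which TFEB and TFE3, regulators of lysosome formation, bind within a longer palindrome, the CLEAR element, in which GT precedes and AC follows CACGTG. Windows of 250 bases before to 50 bases after the RefSeq start were at hand for 32 of the 45 members. CACGTG was found in 8 of these 32 genes (25%), namely ATP6V0B, ATP6V0D1, ATP6V0E2, ATP6V1G1, LAMP1, CTSA, CTSD and CTSF, against 8.77% of all 27305 genes with a window. Both motifs are palindromes, so that 1 strand covers both, and each longer element also counts as CACGTG. The full element was found in ATP6V1G1 alone among the members, against 0.421% of all genes. Neither TGATGCAA, an element bound by ATF4 with C/EBP factors, nor the cAMP response element TGACGTCA was found on either strand in any member window, against 1.08% and 2.25% of all genes. The 200 bases before the start are shown for ROGDI, which holds none of these motifs, for 2 V0 genes and 2 cathepsins with CACGTG whose groups did not overlap, and for ATP6V1G1 and LAMP1, where the motif occurs in its full or its most repeated form while the groups overlap. Capitals mark CACGTG or, in ATP6V1G1, the full element, each sequence is from RefSeq on GRCh38.p14, and each is written 5′ to 3′ on the strand of the gene: ROGDI chr16:4802634-4802833 (minus), ATP6V0B chr1:43974760-43974959 (plus), ATP6V0E2 chr7:149872768-149872967 (plus), ATP6V1G1 chr9:114587569-114587768 (plus), LAMP1 chr13:113297039-113297238 (plus), CTSD chr11:1763928-1764127 (minus) and CTSF chr11:66568607-66568806 (minus).
ROGDI: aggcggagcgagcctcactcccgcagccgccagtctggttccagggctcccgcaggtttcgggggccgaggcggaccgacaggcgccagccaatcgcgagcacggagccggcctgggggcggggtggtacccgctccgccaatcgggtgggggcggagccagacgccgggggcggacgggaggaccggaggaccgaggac
ATP6V0B: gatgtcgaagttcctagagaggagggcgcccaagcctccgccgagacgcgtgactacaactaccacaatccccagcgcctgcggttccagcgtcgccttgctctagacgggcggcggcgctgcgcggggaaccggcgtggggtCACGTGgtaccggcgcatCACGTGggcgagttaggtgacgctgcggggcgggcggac
ATP6V0E2: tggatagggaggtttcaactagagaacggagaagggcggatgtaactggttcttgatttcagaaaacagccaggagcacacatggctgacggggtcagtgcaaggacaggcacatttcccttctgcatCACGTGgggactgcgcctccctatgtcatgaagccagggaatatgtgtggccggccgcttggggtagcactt
ATP6V1G1: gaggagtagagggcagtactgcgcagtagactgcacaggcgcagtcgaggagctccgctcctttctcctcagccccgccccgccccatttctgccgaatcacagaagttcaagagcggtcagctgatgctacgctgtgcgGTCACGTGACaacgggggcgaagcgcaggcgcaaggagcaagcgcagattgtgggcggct
LAMP1: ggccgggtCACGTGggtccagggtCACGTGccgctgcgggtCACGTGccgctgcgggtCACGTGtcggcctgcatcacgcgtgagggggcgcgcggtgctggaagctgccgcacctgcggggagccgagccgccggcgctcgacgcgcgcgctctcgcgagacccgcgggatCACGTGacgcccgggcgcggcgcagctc
CTSD: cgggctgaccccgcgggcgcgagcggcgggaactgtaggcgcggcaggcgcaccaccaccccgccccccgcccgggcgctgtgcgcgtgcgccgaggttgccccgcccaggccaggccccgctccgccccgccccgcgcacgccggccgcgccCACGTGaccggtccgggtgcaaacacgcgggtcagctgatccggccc
CTSF: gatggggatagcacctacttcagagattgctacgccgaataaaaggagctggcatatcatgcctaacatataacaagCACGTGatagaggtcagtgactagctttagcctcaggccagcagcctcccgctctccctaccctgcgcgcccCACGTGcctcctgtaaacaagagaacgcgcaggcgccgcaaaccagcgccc
Among the 8 genes with the motif, ATP6V0B, ATP6V0E2, CTSA and CTSF were higher and CTSD was lower in every Era+VK library. Of all genes tested, 15.1% were higher and 7.04% lower in this way. The libraries of ATP6V0D1, ATP6V1G1 and LAMP1 overlapped. Whether the motif goes with a direction was not tested. The LAMP1 stretch holds CACGTG 5 times. A match describes the letters of the window and does not show binding.

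The 3 partners of ROGDI in the assembly complex had higher means in Era+VK, as did 63.3% of all genes tested, and none passed the test. WDR7 (chromosome 18, 56651343 to 57036606), a WD-repeat protein, was at 3.46, 3.09 and 2.93 FPKM in Era and at 3.98, 3.63 and 3.81 FPKM in Era+VK. Its groups did not overlap, and its log2 fold change was 0.21 (SE 0.07, adjusted p = 0.197 in limma). DMXL2, one of the large rabconnectin proteins, was at 3.45, 3.54 and 3.11 FPKM in Era and at 4.28, 3.49 and 4.08 FPKM in Era+VK. DMXL1, the other rabconnectin, was at 4.22, 4.16 and 3.76 FPKM and at 4.86, 3.85 and 4.83 FPKM. For both, Era+VK 1 and 3 were above all Era libraries, while Era+VK 2 lay within their range (log2 fold change 0.18, SE 0.08, adjusted p = 0.312 for DMXL2 and 0.12, SE 0.08, adjusted p = 0.516 for DMXL1 in limma). These 3 genes have the longest transcripts of all members tested, 14083 bases for WDR7, 10672 for DMXL2 and 11236 for DMXL1. Era+VK 2 is the library in which long transcripts were relatively low. The log2 fold change between the groups also rose with transcript length, with a Spearman correlation of 0.10 over 11893 genes and 0.26 over the 33 members. With the length trend of each library removed, an alternative chosen after the data were seen, the log2 fold changes were 0.17 for WDR7, 0.13 for DMXL2, 0.08 for DMXL1 and 0.41 for ROGDI, whose longest transcript has 2684 bases. DMXL1 was at 0.21 without Era+VK replicate 2 and at 0.08 without either of the other Era+VK libraries.

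**Figure D2:**
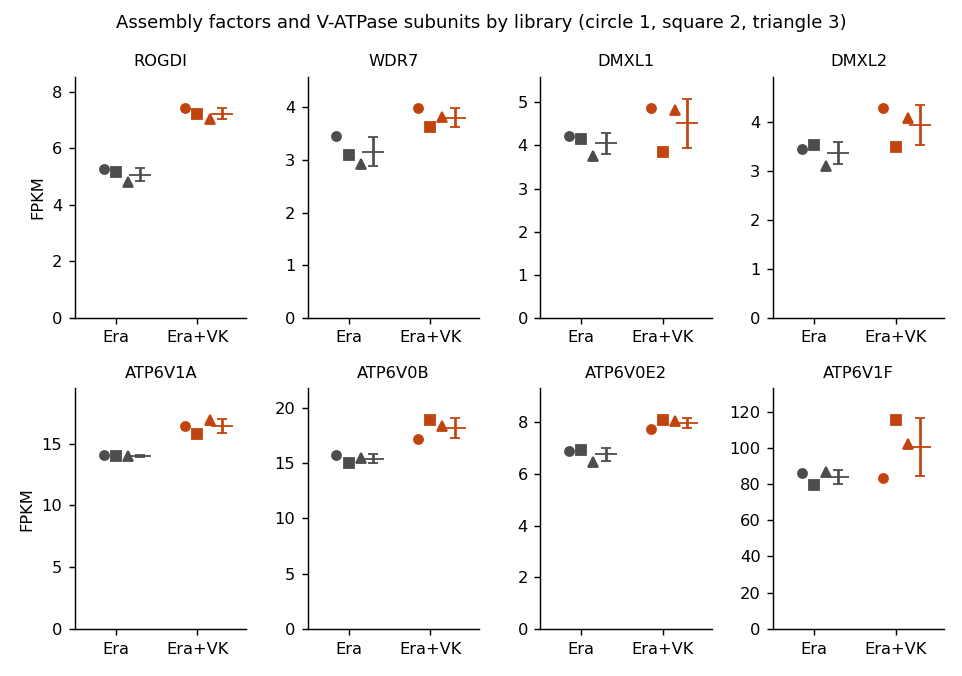
FPKM in each library for the 4 assembly factors and 4 V-ATPase subunits, with circles, squares and triangles for replicates 1, 2 and 3 and the mean with its SD (n = 3) beside them; axes start at 0. ROGDI, WDR7, ATP6V1A, ATP6V0B and ATP6V0E2 have no overlap between groups, while Era+VK 2 (square) is the lowest Era+VK library for DMXL1 and DMXL2 and the highest for ATP6V1F.

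In the V1 sector, ATP6V1A, which encodes the catalytic subunit, was the only one of the 8 tested genes without overlap between groups, against 22.1% of all genes tested. ATP6V1A (chromosome 3, 113747019 to 113812056) was at 14.1, 14.0 and 14.0 FPKM in Era and at 16.5, 15.8 and 16.9 FPKM in Era+VK. The Era values were within 0.10 FPKM of each other and all below the Era+VK values, with a log2 fold change of 0.21 (SE 0.04, adjusted p = 0.0826 in limma), the lowest p of the 32 members. Its nucleotide-binding partner ATP6V1B2 averaged 17.4 ± 0.519 FPKM without VK1 and 17.6 ± 1.12 FPKM with it (SD, n = 3 per group), and its log2 fold change was 0.01 (SE 0.05). ATP6V1F, a small subunit of the central rotor and the most abundant V1 transcript, was at 85.9, 79.2 and 86.5 FPKM in Era and at 83.3, 115 and 102 FPKM in Era+VK. Its 2 high values were those of Era+VK 2 and 3, and Era+VK 1 lay within the Era range. The log2 fold change of 0.24 (SE 0.11, adjusted p = 0.329 in limma) became 0.14 without Era+VK replicate 2 and -0.01 with Era+VK 1 alone. ATP6V1E1, of the peripheral stalk, was at 41.3, 39.9 and 41.2 FPKM and at 40.1, 42.3 and 39.4 FPKM. ATP6V1D, the rotor shaft, was at 21.1, 19.8 and 20.8 FPKM and at 19.9, 22.1 and 20.7 FPKM. For these 2 subunits the groups overlapped, as they did for ATP6V1C1, ATP6V1G1 and ATP6V1H, whose log2 fold changes lay between -0.10 and -0.04. ATP6V1G1, of the peripheral stalk, was at 20.5, 20.5 and 19.9 FPKM with erastin alone and at 17.7, 21.6 and 17.7 FPKM with VK1. Only Era+VK 2, in which short transcripts were relatively high, lay above the Era values of ATP6V1G1, and without it the log2 fold change went from -0.10 to -0.19 (adjusted p = 0.0849 in limma).

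In the V0 sector, 2 of the 7 tested genes, ATP6V0B and ATP6V0E2, were higher in every Era+VK library, against 15.1% of all genes tested. ATP6V0B encodes the c″ proteolipid of the proton-carrying ring (chromosome 1, 43974487 to 43978295) and was at 15.8, 15.0 and 15.5 FPKM in Era and at 17.2, 18.9 and 18.4 FPKM in Era+VK. Its log2 fold change was 0.22 (SE 0.05, adjusted p = 0.101 in limma), and 0.15 with Era+VK 1 alone. ATP6V0C, the main proteolipid of the same ring, had the highest level of the V0 genes, at 89.5, 92.0 and 106 FPKM in Era and at 97.1, 90.5 and 98.5 FPKM in Era+VK. The lowest and the highest value of ATP6V0C were both in Era, so the 2 ring genes differed in pattern, although their difference was not itself tested. ATP6V0E1 was at 84.3, 80.4 and 83.0 FPKM in Era and at 81.0, 94.9 and 78.7 FPKM in Era+VK, with its top value in Era+VK 2 and its lowest in Era+VK 3. Its paralog ATP6V0E2 (chromosome 7, 149872968 to 149891204) was at 6.87, 6.94 and 6.47 FPKM in Era and at 7.73, 8.09 and 8.04 FPKM in Era+VK (log2 fold change 0.21, SE 0.05, adjusted p = 0.113 in limma). An antisense gene, ATP6V0E2-AS1, shares 864 exonic bases with ATP6V0E2 and was at a mean of 1.40 FPKM; use of strand in counting is not given in the sources used here, so their reads cannot be told apart. The a subunit genes ATP6V0A1 and ATP6V0A2 and the d subunit gene ATP6V0D1 had log2 fold changes of 0.05, 0.12 and 0.04, each with overlapping groups, and ATP6V0A2 was at 0.05 without Era+VK replicate 3.

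The accessory proteins and the lysosomal membrane markers differed little. ATP6AP1, which helps to assemble V0, averaged 32.7 ± 1.03 FPKM without and 34.1 ± 1.17 FPKM with VK1, and ATP6AP2, known as the prorenin receptor, was at 19.7 ± 0.497 and 19.1 ± 0.532 FPKM (SD, n = 3 each). LAMP1 was at 86.9, 82.4 and 84.7 FPKM in Era and at 85.4, 85.1 and 85.6 FPKM in Era+VK (log2 fold change 0.01, SE 0.04). LAMP2 was at 41.2, 40.4 and 39.9 FPKM in Era and at 40.9, 41.6 and 41.3 FPKM in Era+VK (log2 fold change 0.03, SE 0.04). For both LAMP genes, as for both accessory genes, the groups overlapped.

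Most subunits with paralogs were supplied by the widely expressed form, in all 6 libraries. ATP6V1B2 held 99.0% to 99.6% of the subunit B FPKM, and ATP6V0D1 held at least 99.8% of subunit d, whereas the kidney and bone forms ATP6V1B1 and ATP6V0D2 did not exceed 0.18 and 0.02 FPKM. Subunit a was divided between ATP6V0A1 (43.9% to 45.9%), TCIRG1, the a3 form of osteoclasts and lysosomes (41.1% to 43.7%), and ATP6V0A2 of the Golgi (8.95% to 11.1%). TCIRG1 is outside the symbol rule and so outside the V0 counts and median above. Its log2 fold change was 0.05 (SE 0.05, adjusted p = 0.630 in limma), with overlapping groups. The ATP6V0E2 share of subunit e was 7.54%, 7.95% and 7.23% in Era and 8.72%, 7.86% and 9.27% in Era+VK, and here the groups overlapped because ATP6V0E1 was high in Era+VK 2. The minor E subunit ATP6V1E2, a testis form, did not reach a mean of 1 FPKM and was not tested. It was at 0.82, 0.96 and 0.95 FPKM in Era and at 0.60, 0.50 and 0.64 FPKM in Era+VK, so its share of subunit E went from 2.18% ± 0.210 to 1.41% ± 0.222 (SD, n = 3 each) without overlap. RHOQ, on the other strand at 13.8 FPKM, shares 155 exonic bases with ATP6V1E2, so the same limit holds. The ATP6V1B1 share of subunit B also went down, from 0.812% ± 0.176 to 0.493% ± 0.084 (SD, n = 3 each), without overlap. ATP6V1B1 and ATP6V1E2 both stayed under 1 FPKM, and their shares were not tested. In all, 12 of the 44 members stayed under a mean of 1 FPKM: ATP6V1B1, ATP6V1C2, ATP6V1E2, ATP6V1G2, ATP6V1G3, ATP6V0A4, ATP6V0D2, CTSE, CTSG, CTSS, CTSV and CTSW.

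**Figure D3:**
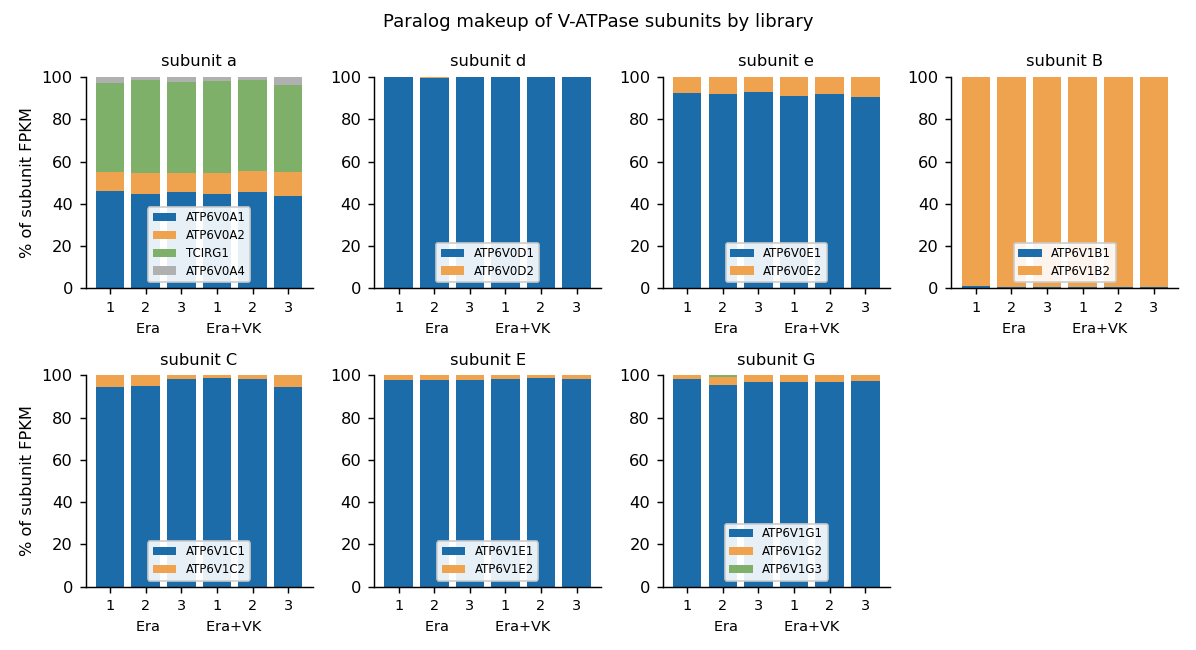
Share of each paralog in the summed FPKM of its V-ATPase subunit, as stacked bars from 0 to 100%, for Era 1 to 3 and Era+VK 1 to 3. A single paralog dominates each subunit except a, where ATP6V0A1 and TCIRG1 each hold over 41% in every library.

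Among the cathepsins, CTSD was far the most abundant, with 67.9% to 70.9% of the summed cathepsin FPKM of a library. CTSD, the main aspartic protease of the lysosome (chromosome 11, 1752752 to 1764573), was at 472, 482 and 475 FPKM in Era and at 452, 432 and 442 FPKM in Era+VK. Every Era+VK library was below every Era library, by 7.16% between the means, with a log2 fold change of -0.11 (SE 0.04, adjusted p = 0.306 in limma). Quantile normalization brought this to -0.05. The summed FPKM of the 15 cathepsin genes went from 674 ± 5.30 in Era to 640 ± 6.57 in Era+VK (SD, n = 3 each) without overlap, whereas the 14 genes without CTSD summed to 198 ± 3.07 and 198 ± 5.46 FPKM, so the difference in the sum lay in CTSD. A lower level in bulk RNA can come from less RNA per cell or from fewer cells carrying it, which cannot be told apart here. The gene AC068580.4, on the same strand at 6.89 FPKM, shares 1304 exonic bases with CTSD.

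CTSH, CTSC and CTSK were also lower in each Era+VK library. CTSH, an aminopeptidase, was at 32.0, 30.2 and 33.1 FPKM in Era and at 29.3, 29.5 and 28.9 FPKM in Era+VK (log2 fold change -0.12, SE 0.05, adjusted p = 0.286 in limma). CTSK, best known as the collagen-degrading protease of osteoclasts, was at 3.30, 2.93 and 3.07 FPKM in Era and at 2.49, 2.46 and 2.58 FPKM in Era+VK (log2 fold change -0.22, SE 0.06, adjusted p = 0.147 in limma). CTSC, which activates serine proteases of granules, was at 4.15, 4.07 and 3.76 FPKM in Era and at 3.27, 3.52 and 3.46 FPKM in Era+VK (log2 fold change -0.18, SE 0.06, adjusted p = 0.202 in limma). In each of the 3, Era+VK 1 lay within or below the range of Era+VK 2 and 3. Those are the libraries with erythroid transcripts, whose part in the lower values was not tested.

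CTSF and CTSA went the other way. CTSF, a cysteine protease (chromosome 11, 66563463 to 66568841), was at 25.0, 25.2 and 23.6 FPKM in Era and at 29.1, 29.6 and 26.5 FPKM in Era+VK, with a log2 fold change of 0.20 (SE 0.05, adjusted p = 0.163 in limma). Its share of all cathepsin FPKM went from 3.65% ± 0.107 to 4.44% ± 0.250 (SD, n = 3 each) without overlap. CTSA, a serine carboxypeptidase that protects neuraminidase and β-galactosidase, was at 35.2, 35.5 and 34.9 FPKM in Era and at 36.5, 38.4 and 36.1 FPKM in Era+VK (log2 fold change 0.07, SE 0.04, adjusted p = 0.457 in limma). With the length trend removed, or without Era+VK replicate 2, CTSA was at 0.04. CTSB, the second most abundant cathepsin, was at 68.4, 66.4 and 65.3 FPKM in Era and at 63.3, 67.8 and 65.3 FPKM in Era+VK, with overlapping groups. CTSL, CTSO and CTSZ overlapped as well, with log2 fold changes of -0.08, -0.04 and -0.01.

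**Figure D4:**
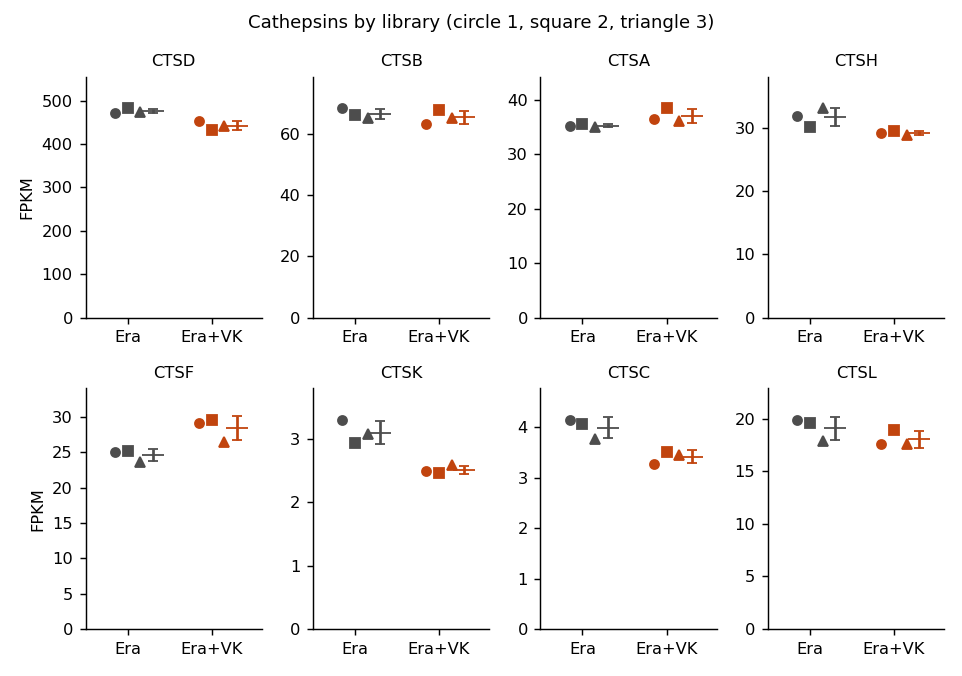
FPKM in each library for 8 cathepsins, with circles, squares and triangles for replicates 1, 2 and 3 and the mean with its SD (n = 3) beside them; axes start at 0. CTSD, CTSH, CTSK and CTSC are lower in each Era+VK library, CTSF and CTSA are higher, and CTSB and CTSL overlap.

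The cathepsins of blood cells were near 0 throughout. CTSS, of antigen-presenting cells, did not exceed 0.15 FPKM, and CTSG, of neutrophils, was between 0.05 and 0.84 FPKM without order by group. CTSE was listed at 0 in the Era libraries and Era+VK 1 and at 0.07 and 0.06 FPKM in Era+VK 2 and 3, and CTSW was listed at 0 in the same 4 libraries and at 0.04 and 0.06 FPKM in the same 2. These are the libraries with erythroid transcripts, whose part in these traces was not tested.

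The members also varied with transcript length in Era+VK 2, with exceptions. Of the 33 tested members including ROGDI, 12 had their highest value in that library, against 25.2% of all genes tested. ATP6V1F, with a longest transcript of 711 bases, exceeded the mean of Era+VK 1 and 3 by 0.32 on the log2 scale there, ATP6V1G1 (1080 bases) by 0.27 and ATP6V0E1 (1433 bases) by 0.25. DMXL1 and DMXL2 were below that mean in Era+VK 2, with differences of -0.27 and -0.21, whereas ROGDI (0.0004) was level with it. ATP6V0C (1175 bases, -0.11) and ATP6V1B2 (6907 bases, 0.15) went against this pattern. Across the 33 members the Spearman correlation of this difference with length was -0.53, as a description over genes that share their libraries.

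**Figure D5:**
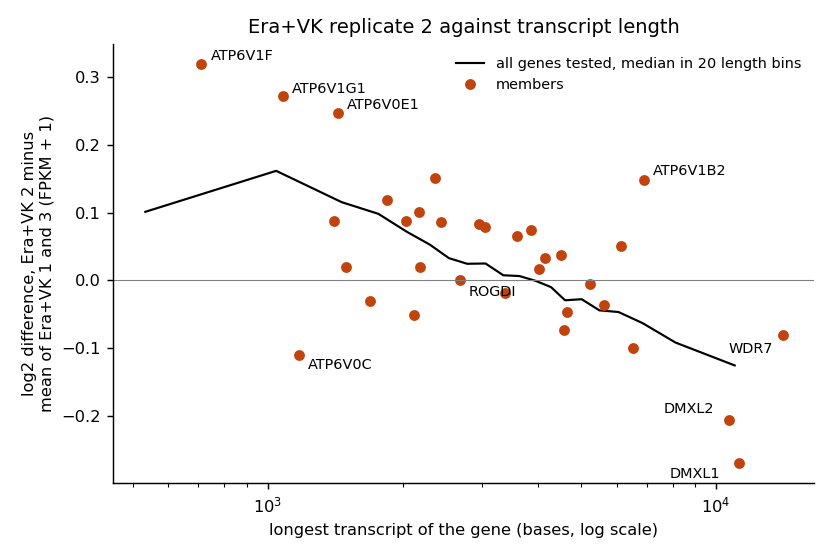
Difference of Era+VK 2 from the mean of Era+VK 1 and 3 on the log2(FPKM + 1) scale against the longest GENCODE 29 transcript of each gene (log axis), for 33 members (points) and as the median of all genes tested in 20 length bins (line). The line runs from above 0 for short to below 0 for long transcripts, and ATP6V1F (0.32) and DMXL1 (-0.27) are the ends of the members.

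Other genes of the pathway were taken from fixed lists, and none of their tested genes passed the threshold either. Of 34 lysosomal hydrolases and cofactors tested, 0 had an adjusted p under 0.05 in limma and 10 an unadjusted p under 0.05 (15.8% of all genes had), and 28 had a higher mean in Era+VK (82.4%, against 63.3% of all genes), with a median log2 fold change of 0.07. PLA2G15, the lysosomal phospholipase A2, was at 12.8, 12.7 and 12.3 FPKM in Era and at 15.5, 15.7 and 14.8 FPKM in Era+VK (log2 fold change 0.26, SE 0.04, adjusted p = 0.0527 in limma), and its adjusted p in limma was 0.0414 with 1 FPKM required in every library, 0.0418 with the length trend removed, 0.121 with no filter, 0.0774 after quantile normalization, 0.112 with the replicate block and 0.0676 to 0.199 with single libraries left out. NEU1, the sialidase that CTSA protects, went from 12.8 to 14.7 FPKM (log2 fold change 0.19, SE 0.04, adjusted p = 0.115 in limma), and LGMN, the asparaginyl endopeptidase that processes cathepsins, from 16.6 to 18.9 FPKM (log2 fold change 0.18, SE 0.04, adjusted p = 0.105 in limma). These 3 are among 12 hydrolases that were higher without overlap between groups (15.1% of all genes were), and 2 were lower (7.04% of all genes).

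Of 19 lysosomal membrane genes tested, 12 had a higher mean in Era+VK (63.2%, against 63.3% of all genes), 0 passed the threshold and 3 had an unadjusted p under 0.05 (against 15.8% of all genes). The shares by mean and by unadjusted p lay at the background. Without overlap between groups, 6 of the 19 were higher and 1 was lower, against 15.1% and 7.04% of all genes. The median of the 19 was 0.07, beside 0.03 over all genes tested. The largest differences were those of SIDT2 (log2 fold change 0.16), the sialin gene SLC17A5 (0.12) and the lysosomal calcium channel gene MCOLN1 (0.11). Among the 8 tested V-ATPase genes outside the symbol rule the median was 0.08, with 0 past the threshold and 0 at an unadjusted p under 0.05. RNASEK, a small V0-associated protein, was at 0.15 (SE 0.14; -0.02 without Era replicate 1), MEAK7 at -0.10 and OXR1 at 0.09. The 9 tested regulators had a median of 0.10, with 0 past the threshold and 2 at an unadjusted p under 0.05, against the same background of 15.8%. MITF (log2 fold change 0.19, SE 0.05, adjusted p = 0.151 in limma) and ZKSCAN3 (0.20, SE 0.07, adjusted p = 0.217) were higher in each Era+VK library, and MTOR was at 0.12. TFEB was low, at 1.42, 1.24 and 1.33 FPKM in Era and 1.62, 1.44 and 1.42 FPKM in Era+VK, and TFE3 was at 34.4 to 38.7 and 36.6 to 40.9 FPKM, with overlapping groups for both. The 9 Ragulator and Rag GTPase genes, which link the V-ATPase to mTORC1, had a median of 0.07, with 0 past the threshold and 3 at an unadjusted p under 0.05, against 15.8% of all genes. The largest differences were those of LAMTOR4 (0.30, SE 0.12), RRAGC (0.19, SE 0.06) and LAMTOR2 (0.18, SE 0.08). Without Era+VK replicate 2, LAMTOR4 was at 0.16 and RRAGC at 0.21, so their order depends on that library. The cystatin genes CST3 and CSTB, inhibitors of cysteine cathepsins, were at 0.07 (SE 0.05) and -0.06 (SE 0.07), with overlapping groups.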

How the data were processed

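Total RNA of 6 samples was sequenced as paired ends, 3 per group. The authors deposited FPKM per gene, with 2 decimals, 1 library per file. The submitters' processing notes name cutadapt, HISAT2 and StringTie 2.1.6 and the mouse build mm10, while the gene identifiers are those of human Ensembl genes; annotation release and filters are not given in the sources used here. The cell line label carries a rising number, while the titles name ARPE-19 throughout.

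Groups and replicate numbers follow the sample titles. In R 4.3.3, limma 3.58.1 (empirical Bayes with a trend) was fitted to log2(FPKM + 1) of all genes averaging 1 FPKM or more, Era+VK against Era, without a replicate block, with Benjamini-Hochberg adjustment over all of them and a threshold of 0.05. Depth is unknown: the phase concentration of low values was 0.151 to 0.195 over 444 to 472 genes with 1 exon, against at least 0.988 for simulated whole reads. In a simulation over 11981 genes of Era+VK against Era, limma recovered 96 of 100 changes of 1 and 84 of 100 changes of 0.5 on the log2 scale and called 9 unchanged genes. Its noise was independent and normal for each gene, without effects shared across a library such as the length trend. No tested member other than ROGDI differed by more than 0.24, so these rates do not say how often changes of that size would be found. Positions, lengths and overlaps are from GENCODE 29 (GRCh38), matched by gene identifier for all 45 members, and promoter windows from RefSeq (GRCh38.p14).

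Members and lists were chosen with earlier results of these data known. Values in every library are given for ROGDI, members whose groups do not overlap, LAMP1, LAMP2 and the 3 most abundant V1 genes, V0 genes and cathepsins, and, added after seeing values, for DMXL1, DMXL2, ATP6V1E2, ATP6V1G1 and the marker BEST1; from each list the 3 genes with the largest differences are named. TFEB and TFE3 were named as the factors of the motif. Alternatives were a pseudocount of 0.1, no filter, 1 FPKM in every library, quantile normalization, rescaling without mitochondrially encoded genes, a replicate block, each library left out, and both libraries with erythroid transcripts left out. Removal of the length trend (lowess, span 0.3) was added after the data were examined.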

Additional observations from a re-analysis of the deposited data

How the results depend on the processing

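No alternative brought any of the 32 tested members past the threshold, and ROGDI was not tested. The count of all genes called, 74, was 1 with no filter on low genes, 122 with 1 FPKM required in every library, 112 after quantile normalization, 35 without both Era+VK replicates 2 and 3, 170 after removal of the length trend, and between 2 and 70 with each library left out in turn; it was 2, 2 and 5 without Era replicates 1, 2 and 3. With the replicate number as a block it was 42. The numbers were not taken as pairs, since the deviations of same-numbered libraries correlated at 0.07, 0.10 and 0.02, and the block changed no call of a member. The medians of the V1 subunits, V0 subunits and cathepsins, the role groups for which alternatives were run, moved by less than their spread between libraries in all settings.

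In all, 11 tested members changed sign in some setting, of which ATP6V1F had the largest difference (0.24) and did so only without both Era+VK replicates 2 and 3. After quantile normalization ATP6V1B2 was at -0.026 and ATP6V0C at 0.0060 (log2 fold change). Without both Era+VK replicates 2 and 3, where the lone library is assumed to vary like the Era libraries, ATP6V1D was at -0.044, CTSZ at 0.014, ATP6V0E1 at -0.028, ATP6V1F at -0.0087, ATP6V1B2 at -0.037 and ATP6V0C at 0.023. After removal of the length trend LAMP2 was at -0.0073, LAMP1 at -0.026 and ATP6V1B2 at -0.034. With single libraries left out, log2 fold changes ranged from -0.038 to 0.013 for ATP6V1E1, -0.017 to 0.26 for RNASEK, -0.017 to 0.056 for ATP6V1D, -0.027 to 0.0093 for CTSZ, -0.0070 to 0.030 for LAMP1, -0.039 to 0.036 for ATP6V1B2, -0.051 to 0.070 for ATP6V0C, -0.099 to 0.013 for ATP6V1H, -0.073 to 0.0026 for CTSO and -0.048 to 0.086 for ATP6V0E1. The cause was not tested. With a pseudocount of 0.1 ROGDI was at 0.51. FPKM without depth give no counting error, which limits the members under 1 FPKM most.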
